A study of Mus musculus with 3 samples.

Results

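Counts were examined at 8 mouse genes that form 4 pairs on opposite strands of the same loci. In each pair 1 gene encodes an RNA-binding protein and the other an unrelated protein: Srsf2 with Mettl23, Hnrnpu with Cox20, Hnrnpab with Phykpl, and Tardbp with Masp2. The 8 genes were chosen by symbol, with their counts in these libraries already known, from 24028 gene identifiers in the deposited table. Their levels, the division of counts within a pair and the ratios between libraries are therefore descriptions and carry no test. The libraries came from skin papillomas, benign tumours of the epidermis, of C57BL/6 mice treated with the carcinogen DMBA and the tumour promoter TPA. The groups were wild-type mice with their own galectin-7, Lgals7-/- mice lacking this lectin of stratified epithelia, and Tg46 mice carrying a galectin-7 transgene driven by the keratin 14 promoter, which is active in basal keratinocytes. Each genotype gave 1 library, from 3 pooled tumours, and the differences described have no replicates to check them. Age and sex of the mice were not given in the sources used here.

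Pre-messenger RNA is bound by RNA-binding proteins as it is made. SR proteins mostly promote the inclusion of exons, and heterogeneous nuclear ribonucleoproteins (hnRNPs) package the transcript and often repress splice sites. Srsf2 is an SR protein that binds exonic splicing enhancers, Hnrnpu is a nuclear matrix protein that binds RNA and chromatin, Hnrnpab is an hnRNP with a pair of RNA recognition motifs, and Tardbp encodes TDP-43, which represses cryptic exons. All 4 are made in most cell types, the keratinocyte included. Their neighbours have other roles. Mettl23 is a methyltransferase-like protein, Cox20 an assembly factor of mitochondrial cytochrome c oxidase, Phykpl an enzyme that breaks down phosphohydroxylysine, and Masp2 a serine protease of the lectin pathway of complement, made mainly in the liver.

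In all 4 pairs the RNA-binding protein gene is on the minus strand and its neighbour on the plus strand (mm10 coordinates, GENCODE M21 models). Srsf2 spans 116849901 to 116853094 and Mettl23 116843278 to 116854263 on chromosome 11. Hnrnpab spans 51600100 to 51606847 and Phykpl 51584757 to 51604489 on the same chromosome. On chromosome 1 Hnrnpu spans 178321108 to 178337797 and Cox20 178319130 to 178322693, and on chromosome 4 Tardbp spans 148612382 to 148627019 and Masp2 148602554 to 148615499. The Entrez identifiers in the table are 20382 (Srsf2), 74319 (Mettl23), 51810 (Hnrnpu), 66359 (Cox20), 15384 (Hnrnpab), 72947 (Phykpl), 230908 (Tardbp) and 17175 (Masp2). The pairs of Hnrnpu, Hnrnpab and Tardbp meet tail to tail, whereas the Srsf2 span lies wholly inside that of Mettl23.

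The exons shared by both strands differed widely between the pairs. Exons of Cox20 and Hnrnpu overlapped over 804 bases, which is 91.1% of the Cox20 exon length of 883 bases and 6.93% of the 11599 bases of Hnrnpu. For Masp2 and Tardbp the overlap was 1817 bases, 54.9% of Masp2 and 23.3% of Tardbp, and it took in 836 coding bases of Masp2 and 72 of Tardbp. Phykpl and Hnrnpab shared 809 bases, 8.34% and 29.1% of their exons. Mettl23 and Srsf2 shared 460 bases, 17.1% and 15.6% of their exons, none of them coding on either strand. Some of these overlaps rest on a single transcript model. Of the 8 Mettl23 transcripts 1, a retained-intron form, reached the Srsf2 exons. Of the 9 Hnrnpu transcripts 1, annotated as non-coding, reached those of Cox20, and of the 4 Masp2 transcripts 1, protein-coding, reached those of Tardbp. In the RefSeq annotation of the same assembly the Mettl23 span ended 156 bases before that of Srsf2 began, while the other 3 pairs overlapped in both annotations.

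**Figure D1:**
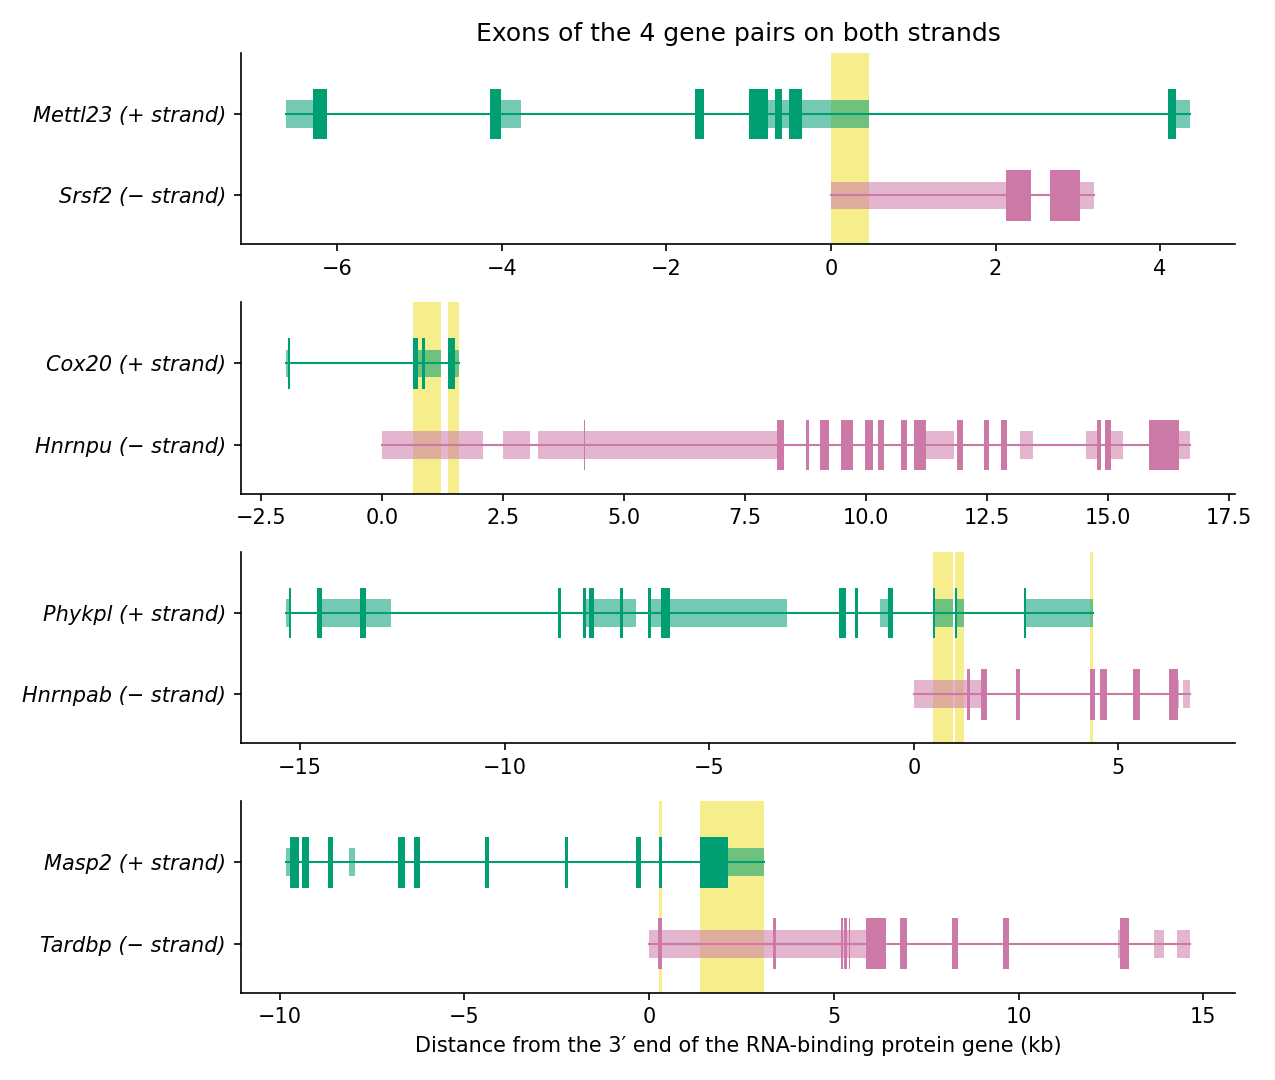
Exon unions (pale boxes) and coding parts (full boxes) of each pair, by distance in kb from the 3′ end of the RNA-binding protein gene; yellow bands mark bases that are exonic on both strands. The bands cover 460 bases at Srsf2/Mettl23, 804 at Hnrnpu/Cox20, 809 at Hnrnpab/Phykpl and 1817 at Tardbp/Masp2.

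The libraries were shallow, with totals of 172011 (wild-type), 312600 (Lgals7-/-) and 354499 (Tg46) counts. Lgals7 itself held 0, 2 and 4 counts, which do not separate wild-type from Lgals7-/- and are too few to check the genotypes, so the libraries are named here as labelled. Keratinocyte markers were present in every library, but with few counts. Wild-type held 7 of Krt5, 20 of Krt14, 21 of Krt1 and 25 of Krt10. The summed CPM (counts scaled to a common library size) of Krt5, Krt14, Itga6 and Trp63 were 428, 434 and 552 in wild-type, Lgals7-/- and Tg46, and those of Krt1, Krt10, Ivl and Lor were 446, 960 and 1006. Unscaled, the first of these keratinocyte lists summed to 74, 143 and 185 and the second to 77, 316 and 337. In each library both lay below Mettl23 alone, at 265, 423 and 825. The share of keratinocytes in the tissue was not tested. Markers of other cell types varied too, with 4 hair follicle genes (mostly Tchh) at 1105, 4013 and 710 CPM. The 4 melanocyte genes summed to 1227, 829 and 1916 CPM, a pattern set by Pmel (207, 257 and 624 counts), and without it Tyr, Dct and Mlana summed to 28.9, 48.6 and 53.7 CPM. The leukocyte list stood at 249, 313 and 227 CPM, the fibroblast list at 365, 377 and 418, the endothelial list at 145, 149 and 143, the skeletal muscle list at 133, 106 and 116 and the adipocyte list at 28.9, 75.9 and 95.5, with Plin1 in wild-type the only one of all these markers at 0. Whether these differences had a part in the values of the 8 genes was not tested, and in pooled tissue a change in cell number and a change in RNA per cell cannot be told apart. The use of strand in the authors' counting was likewise unstated in those sources. The counts of either gene of a pair therefore cannot be assigned to its own transcript.

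Among the RNA-binding protein genes, Hnrnpu held by far the most counts. The wild-type library had 104, Lgals7-/- 156 and Tg46 322, which is 602, 474 and 961 CPM. The Tg46 library stood above the others, and its 95% counting interval of 859 to 1072 CPM did not meet theirs. Hnrnpab held 19, 43 and 60 counts, or 110, 131 and 179 CPM, and the intervals of the 3 libraries overlapped. For Srsf2 the counts were 14, 37 and 39 (81.0, 112 and 116 CPM), again with overlapping intervals. Tardbp was the lowest of the 8 genes, with 11, 22 and 13 counts, or 63.7, 66.8 and 38.8 CPM. These counts placed Tardbp at percentiles 79.6, 84.6 and 68.3 of all identifiers, against 99.7, 99.5 and 99.7 for Hnrnpu.

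The neighbours ranked among the genes with the most counts in the whole table. Phykpl, in the same order of libraries, held 305, 606 and 940, ranking 9th, 8th and 6th. Mettl23 held 265, 423 and 825 and ranked 12th, 16th and 11th. Both enzymes were highest in Tg46, where their intervals (2628 to 2990 CPM for Phykpl, 2296 to 2635 CPM for Mettl23) lay above those of the other libraries. Cox20 held 117, 289 and 440 counts, or 677, 878 and 1313 CPM, in the same order of libraries. Masp2 held 120, 275 and 278, or 695, 835 and 829 CPM, with intervals that overlapped in all 3 libraries. The 4 neighbours together took 0.469%, 0.510% and 0.700% of each library, and the 4 RNA-binding protein genes 0.0860%, 0.0825% and 0.122%.

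Levels can be compared between genes only per length, and on that scale all 4 neighbours lay above all 4 RNA-binding protein genes in every library. Per kb of exon, Cox20 stood at 767, 994 and 1487 CPM in wild-type, Lgals7-/- and Tg46, and Mettl23 at 569, 476 and 913. Their intervals overlapped in wild-type and not in the other libraries. Masp2 followed at 210, 253 and 251 CPM per kb and Phykpl at 182, 190 and 289, with overlapping intervals in wild-type and Tg46. Measured per kb of the longest transcript, Phykpl was above Masp2 in every library, at 454, 473 and 721 against 227, 273 and 271 CPM per kb. Its longest transcript has 3889 of the 9699 bases of its exon union. Hnrnpu stood at 51.9, 40.9 and 82.8 CPM per kb of exon, Hnrnpab at 39.5, 47.0 and 64.4 and Srsf2 at 27.4, 38.0 and 39.3. The intervals of these 3 genes overlapped in wild-type and Lgals7-/-, whereas in Tg46 the interval of Hnrnpu (74.0 to 92.4) lay above that of Srsf2 (28.0 to 53.8). Tardbp stood below all of them at 8.17, 8.57 and 4.98, where the medians over all 23697 annotated genes were 5.69, 6.78 and 6.60.

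**Figure D2:**
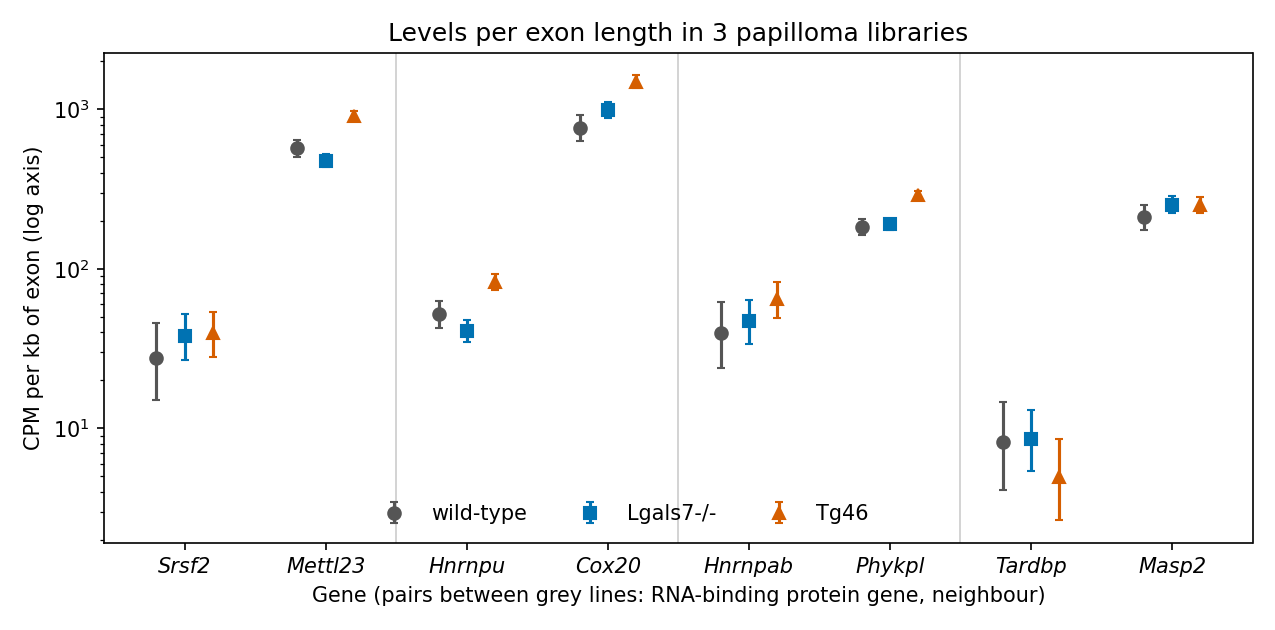
CPM per kb of exon (log axis) of the 8 genes in the wild-type, Lgals7-/- and Tg46 libraries, with 95% Poisson intervals that cover counting error only. The neighbours lie between 182 and 1487 and the RNA-binding protein genes between 4.98 and 82.8.

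Set beside genes of related families, the neighbours stood far above them and the RNA-binding protein genes mostly did not. The highest of 12 other complement genes reached 27.4 CPM per kb in wild-type (Serping1, the C1 inhibitor) and 28.7 in Lgals7-/- (Fcna, a ficolin). In Tg46 it was Cfb, complement factor B, at 38.0. Masp2 stood at 210, 253 and 251 in these libraries. The highest of 16 pyridoxal phosphate transaminases reached 19.0, 14.6 and 15.8 CPM per kb, against 182, 190 and 289 for Phykpl. Mettl5, an RNA methyltransferase, was the highest of 19 other methyltransferases at 104, 74.8 and 158, against 569, 476 and 913 for Mettl23. Among 18 other cytochrome c oxidase assembly genes Coa6 reached 217 in wild-type and Cmc1 107 in Lgals7-/- and 199 in Tg46, each below Cox20. In contrast, Srsf2 lay below the highest of 10 other SR genes in every library, which was Srsf11 at 39.7 in wild-type and Srsf9 at 68.0 and 61.4 in the others. In Tg46 Hnrnpu, at 82.8, exceeded the highest of 22 other hnRNP genes, Hnrnpa2b1 at 63.0. Hnrnpab, at 64.4 with an interval of 49.1 to 82.8, was level with Hnrnpa2b1 there. Both lay below the highest in wild-type (Hnrnph3, 99.2) and in Lgals7-/- (Hnrnpa2b1, 80.7). Tardbp was within the range of 14 FET and other RNA-binding protein genes, whose medians were 5.88, 5.64 and 5.37.

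The promoters of Tardbp and Masp2 are printed here because Tardbp, a gene made in most cell types, was the lowest of the 8 genes, whereas Masp2, a liver gene, was far above it. The windows run from 250 bases before to 50 after the RefSeq start site (GRCm38.p6), at chr4:148626947-148627246 on the minus strand for Tardbp and chr4:148602294-148602593 on the plus strand for Masp2, and capitals mark CpG dinucleotides. The RefSeq span of Masp2 begins further upstream, at 148594622, a start whose window is not shown.
Tardbp: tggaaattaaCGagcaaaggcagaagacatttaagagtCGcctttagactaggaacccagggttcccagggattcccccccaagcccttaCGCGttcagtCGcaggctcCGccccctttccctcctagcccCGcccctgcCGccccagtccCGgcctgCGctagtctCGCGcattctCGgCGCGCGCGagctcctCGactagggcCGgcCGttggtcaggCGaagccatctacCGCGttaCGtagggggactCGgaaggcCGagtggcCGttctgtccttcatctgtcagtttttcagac
Masp2: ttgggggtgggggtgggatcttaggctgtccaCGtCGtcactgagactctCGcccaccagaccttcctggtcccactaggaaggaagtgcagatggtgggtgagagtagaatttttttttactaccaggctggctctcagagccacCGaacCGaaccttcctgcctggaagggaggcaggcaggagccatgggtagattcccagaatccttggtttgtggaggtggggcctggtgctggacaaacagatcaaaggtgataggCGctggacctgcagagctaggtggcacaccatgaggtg
The Tardbp window holds 27 CpGs and is 62% G or C, and the Masp2 window holds 6 CpGs at 57%. The median of all 32851 windows in the table is 7 CpGs, and 84.5% of windows hold fewer than Tardbp and 43.6% fewer than Masp2. The other 6 genes, all of which matched the table, held 28 to 41 CpGs, so Masp2 was the 1 gene of the 8 below the median. A GC box (GGGCGG on either strand) occurred in 35.7% of all windows and in those of all the members except Masp2, with 3 matches in Tardbp. A TATA box (TATAAA on either strand), found in 13.6% of all windows, was in those of Srsf2 and Hnrnpab, with 1 match each. These are matches of letters and were not tested as binding sites.

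Within a pair, most counts were listed at the neighbour. For Srsf2 and Mettl23 the share at Srsf2 was 5.02% in wild-type (95% exact interval 2.77% to 8.28%), 8.04% in Lgals7-/- (5.73% to 10.9%) and 4.51% in Tg46 (3.23% to 6.12%). Hnrnpab had 5.86% (3.57% to 9.01%), 6.63% (4.84% to 8.82%) and 6.00% (4.61% to 7.66%) of the counts of its pair with Phykpl. Tardbp had 8.40% (4.27% to 14.5%), 7.41% (4.70% to 11.0%) and 4.47% (2.40% to 7.52%) of those of its pair with Masp2. Over the 3 libraries the RNA-binding protein genes of these pairs held 5.61%, 6.18% and 6.40% of the counts, close to one another. The pair of Hnrnpu and Cox20 differed, with 47.1% (40.3% to 53.9%), 35.1% (30.6% to 39.7%) and 42.3% (38.7% to 45.9%) at Hnrnpu. Per kb of exon the share at Hnrnpu was 6.34%, 3.95% and 5.28% of the summed level, near those of Srsf2 (4.60%, 7.39% and 4.13%) and Tardbp (3.74%, 3.28% and 1.95%), and that at Hnrnpab was 17.8%, 19.8% and 18.2%. On that scale Cox20 was 14.8, 24.3 and 17.9 times Hnrnpu, Mettl23 20.8, 12.5 and 23.2 times Srsf2, Masp2 25.7, 29.5 and 50.4 times Tardbp, and Phykpl 4.60, 4.04 and 4.49 times Hnrnpab. The values of the last pair depend on the length used. Per kb of the longest transcript the gap was wider, with Phykpl at 454, 473 and 721 CPM and Hnrnpab at 46.4, 55.1 and 75.5.

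The same division was measured over all protein-coding pairs with exons across each other on opposite strands. Of 1355 annotated pairs, 627 held at least 100 counts over the 3 libraries, and the smaller gene had a median of 25% of them (quartiles 13.7% and 38.2%). By summed counts, Hnrnpab/Phykpl ranked 3rd of these pairs, Srsf2/Mettl23 8th, Hnrnpu/Cox20 10th and Tardbp/Masp2 47th. Only 7.66%, 8.45% and 8.77% of the pairs had a smaller share at their lesser gene than Srsf2/Mettl23, Hnrnpab/Phykpl and Tardbp/Masp2, against 79.4% for Hnrnpu/Cox20. The greater count lay at the gene with more of its exon length under the overlap in 240 of 624 pairs (38.5%). That was also so for Mettl23, Cox20 and Masp2, but not for Phykpl. Of the RNA-binding protein genes of the family lists, 6 share exons with a coding gene in such pairs, and 5 held fewer counts than that gene. The minimum of 100 counts per pair fixed this order for Ptbp1 and Snrpa. With 29 and 23 counts they could enter only across a gene with more. The 5 of 6 therefore cannot show how common this order is among such genes. Pcbp2, a poly(C)-binding protein, held 18, 26 and 31 counts against 535, 365 and 735 at Map3k12. Hnrnph3 held 54, 54 and 63 against 254, 429 and 555 at Rufy2, Ptbp1 29 in all against 251 at Plppr3, Hnrnpk 57 against 171 at Rmi1 and Snrpa 23 against 113 at BC024978. In the sixth, Sf3b3, a splicing factor subunit, held 119 counts in all against 45 at Cog4. Among the genes of these lists, the 22 with any opposite-strand exon had median levels of 8.14, 9.85 and 9.17 CPM per kb and the 43 without had 9.36, 7.38 and 6.80. Srsf2 and Mettl23 each lie across a further gene as well, head to head. Mfsd11, whose exons overlap 288 coding bases of Srsf2, held 7, 20 and 5 counts, and Jmjd6, across 172 bases of Mettl23, held 8, 2 and 4.

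**Figure D3:**
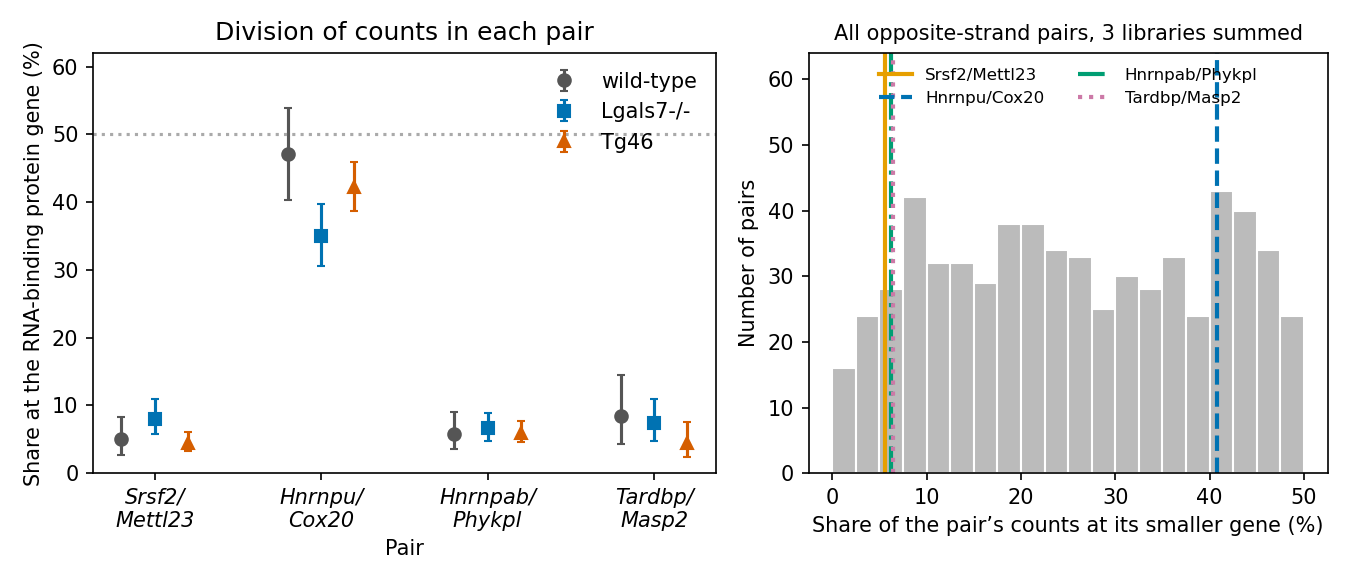
Left, the share of each pair's counts at its RNA-binding protein gene in the 3 libraries, with 95% exact binomial intervals and a dotted line at equal shares; right, the number of opposite-strand coding pairs by the share at their smaller gene, counts summed over libraries, with lines at the 4 pairs. The share lies between 35.1% and 47.1% for Hnrnpu and between 4.47% and 8.40% for the other genes.

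The comparison of Lgals7-/- with wild-type asks what differs in tumours without galectin-7. A gene was called where the scaled ratio was at least 2-fold and its exact 95% interval excluded 1. Of the 8 members 0 were called higher and 0 lower, where 13.3% and 13.7% of the 12940 genes tested were called. All 8 held at least 10 counts in every library and so passed the filter on low counts in each. Raising the filter to 100 counts left 31 of all genes higher and 20 lower. The shares over all genes thus come mostly from genes with fewer counts. The ratio of Cox20 was 1.29 (interval 1.04 to 1.62), that of Mettl23 0.837 (0.717 to 0.981) and that of Hnrnpu 0.786 (0.610 to 1.02). Srsf2 stood at 1.36 (0.732 to 2.78), Masp2 at 1.20 (0.967 to 1.5), Hnrnpab at 1.17 (0.678 to 2.16), Phykpl at 1.04 (0.907 to 1.20) and Tardbp at 1.03 (0.488 to 2.40). The median log2 ratio of the members was 0.14, against 0.10 over all genes tested. Upper-quartile scaling moved the median log2 ratio of all genes by 0.21 here and by 0.24 in Tg46 over wild-type, and scaling to total counts moved it by -0.16 in Tg46 over Lgals7-/-.

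In Tg46 over wild-type, which asks what differs where keratinocytes make additional galectin-7, 0 members were called higher and 0 lower, with 13.7% and 13.9% of all genes called. Even so, 6 of the 8 ratios lay between 1.40 and 1.93. Cox20 was at 1.93 (1.58 to 2.40), Mettl23 at 1.60 (1.40 to 1.85), Hnrnpab at 1.60 (0.958 to 2.89), Hnrnpu at 1.59 (1.28 to 2.01), Phykpl at 1.59 (1.39 to 1.81) and Srsf2 at 1.40 (0.763 to 2.86). Masp2 was at 1.19 (0.961 to 1.49) and Tardbp, the 1 gene below 1, at 0.605 (0.252 to 1.5). The median log2 ratio was 0.67 for the members and 0.11 for all genes tested. Raising the filter to 100 counts left 108 genes higher and 6 lower. A filter on unscaled counts can favour genes high in Tg46, the deepest library. These numbers therefore cannot show whether a lean towards Tg46 was particular to the members. With DESeq2 size factors and with upper-quartile factors Cox20 passed the threshold, at log2 ratios of 1.01 and 1.19.

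In Tg46 over Lgals7-/-, the widest contrast in galectin-7 by genotype, 1 of the 8 members was called higher and 0 lower, against 8.43% and 7.73% of all genes. That gene was Hnrnpu, at 2.02 (1.67 to 2.47), from 156 counts to 322. It lay at the threshold and was not called with DESeq2 size factors (log2 ratio 0.995), total counts (0.86) or 5 added counts (0.996). Mettl23 was close to it at 1.91 (1.70 to 2.16), Phykpl at 1.52 (1.37 to 1.69), Cox20 at 1.49 (1.29 to 1.74) and Hnrnpab at 1.37 (0.911 to 2.08). Srsf2, at 1.03 (0.643 to 1.67), and Masp2, at 0.993 (0.837 to 1.18), were near 1, and Tardbp was at 0.589 (0.269 to 1.20). The medians were 0.51 for the members and -0.026 for all genes tested. With the filter at 100 counts 104 genes were higher and 4 lower. For the same reason as above, this cannot show whether the lean was particular to the members. Each comparison shares a library with both others, so the ratios of a gene are not independent of one another.

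The counts of both genes of a pair were also summed, which sets aside how they were divided between the pair. How the authors' counting treated reads in shared exons is unstated, so the sum need not hold every read of the locus once. No sum was called in any comparison. For Hnrnpu with Cox20 the sums were 221, 445 and 762 counts, with a ratio of 1.77 (1.53 to 2.07) in Tg46 over wild-type and 1.68 (1.49 to 1.89) over Lgals7-/-. For Srsf2 with Mettl23 these were 1.59 (1.39 to 1.83) and 1.84 (1.65 to 2.07), and for Hnrnpab with Phykpl 1.59 (1.40 to 1.81) and 1.51 (1.37 to 1.67). The Tardbp and Masp2 locus stood apart from these in size, at 1.14 (0.929 to 1.42) and 0.962 (0.816 to 1.14). Lgals7-/- over wild-type gave sums between 0.865 (0.744 to 1.01) at Srsf2 with Mettl23 and 1.19 (0.966 to 1.47) at Tardbp with Masp2.

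**Figure D4:**
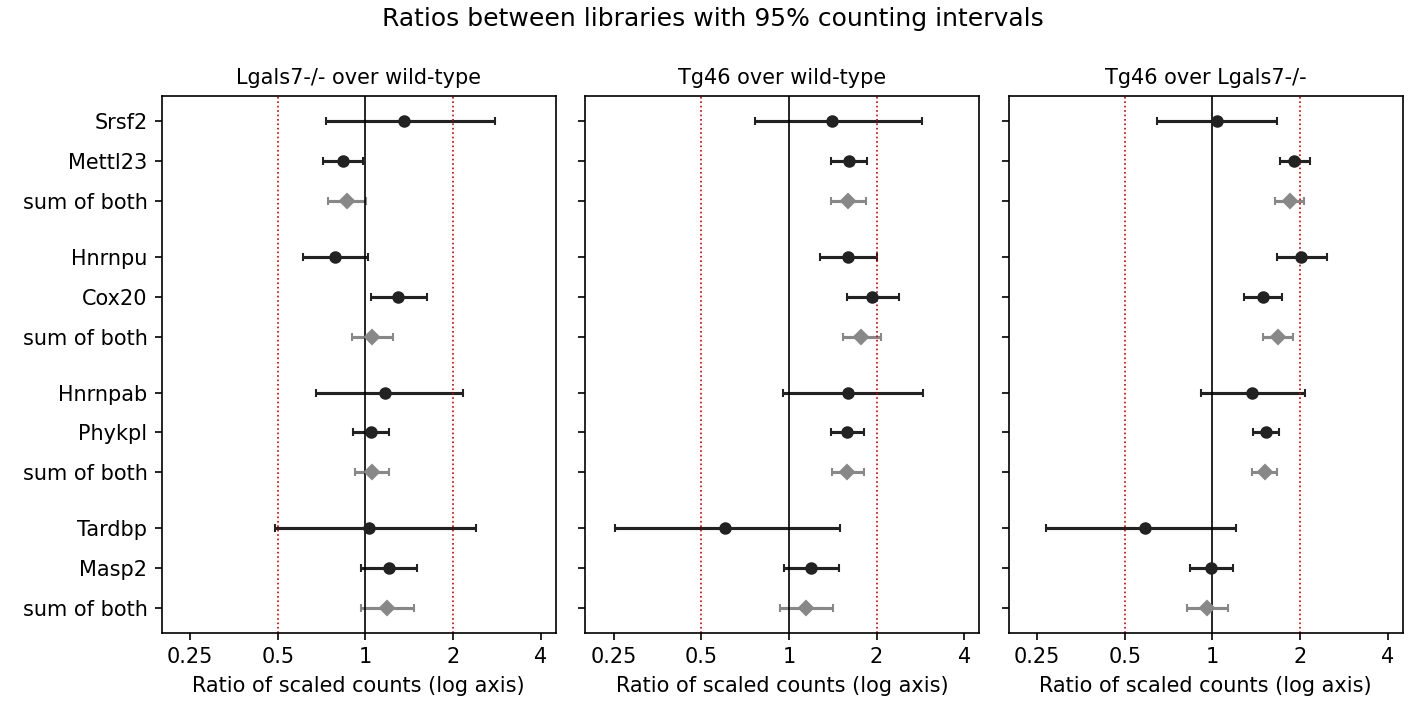
Ratios of scaled counts (log axis) between libraries for each gene (black) and for the sum of each pair (grey), with 95% counting intervals; red dotted lines mark 2-fold. In Tg46 over Lgals7-/- Hnrnpu, at 2.02, is the 1 point past the line, and Tardbp lies at 0.589.

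Whether the division within a pair differed between libraries does not depend on how the libraries are scaled. The odds of a count lying at the RNA-binding protein gene rather than its neighbour were compared for the 4 pairs in each of 3 comparisons. In Lgals7-/- over wild-type the interval excluded 1 for 1 of the 4 pairs, where 24.2% of the 627 opposite-strand pairs did so. That was Hnrnpu with Cox20, whose odds ratio was 0.608 (0.432 to 0.855). In Tg46 over wild-type 0 of the 4 did, against 30.9% of all pairs. In Tg46 over Lgals7-/- 2 of the 4 did, against 23.8%, with Hnrnpu up relative to Cox20 (odds ratio 1.36, 1.06 to 1.74) and Srsf2 down relative to Mettl23 (0.541, 0.330 to 0.886). For Hnrnpab with Phykpl the odds ratios were 1.14, 1.02 and 0.900 in the 3 comparisons, with the narrowest interval running from 0.590 to 1.38. For Tardbp with Masp2 they were 0.873, 0.511 and 0.585. All 3 intervals took in 1, that of the last running from 0.265 to 1.24.

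Other genes of the same families were called in both directions. Of 8 SR genes tested of 10, 1 was called higher and 2 lower in Lgals7-/- than in wild-type, and 1 higher and 3 lower in Tg46, with medians of 0.57 and 0.35. Srsf4 was 2.38-fold (1.15 to 6.19) and 2.46-fold (1.19 to 6.38) higher, Srsf3 2.33-fold (1.06 to 5.30) and 4.92-fold (1.92 to 16.1) lower, and Srsf7 6.93-fold lower (2.09 to 42.8) in Tg46. Srsf12 had 10 counts in the wild-type library, 0 in Lgals7-/- and 1 in Tg46. With the 0 set to 3 counts it was 6.35-fold lower in Lgals7-/-, and its exact interval began at 4.27-fold lower. Of 18 hnRNP genes tested of 22, 1 was called higher and 3 lower in Lgals7-/-, and 1 higher and 6 lower in Tg46 (medians -0.10 and -0.21). Hnrnpll was 3.88-fold (1.97 to 8.35) and 4.64-fold (2.29 to 10.6) lower, Hnrnpc held 1, 20 and 15 counts, and Hnrnph2 held 12, 0 and 9. Of 13 FET and other RNA-binding protein genes tested of 14, 0 were called higher in either comparison with wild-type, and 2 and 3 lower (medians -0.59 and -0.56). Tia1 was 3.31-fold (1.41 to 8.70) and 3.77-fold (1.57 to 10.5) lower, and G3bp1, a stress granule protein, 2-fold (1.02 to 3.97) and 6.12-fold (2.5 to 19.7) lower. Of 14 core spliceosome genes tested of 19, 2 were called higher and 2 lower in Lgals7-/-, and 1 higher and 2 lower in Tg46 (medians 0.13 and 0.24). The 2 called lower were Snrnp200 and Sf3b1 both times, at 3.94-fold (2.32 to 7.07) and 2.92-fold (1.71 to 5.13) in Lgals7-/- and 4.43-fold (2.57 to 8.15) and 3.93-fold (2.21 to 7.44) in Tg46. In Tg46 over Lgals7-/- the 4 lists had 0, 1, 1 and 0 genes called higher and 0, 1, 2 and 2 lower. The shares over all genes are those given with each comparison above, and a gene could pass the filter on low counts through 1 high library.

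Families of the neighbours were mixed as well. Over all genes tested, 13.3% were called higher and 13.7% lower in Lgals7-/- than in wild-type, and 13.7% and 13.9% in Tg46. In Tg46 over Lgals7-/- the shares were 8.43% and 7.73%. The median log2 ratios over all genes were 0.10, 0.11 and -0.026, and the lists are too small to set apart from these. Of 12 methyltransferase genes tested of 19, 3 were called higher and 2 lower in Lgals7-/- than in wild-type and 1 higher and 3 lower in Tg46 (medians -0.56 and 0.18). Mettl18, which methylates a ribosomal protein, held 22, 0 and 1 counts, and Mettl5 was 2.10-fold higher (1.54 to 2.92) in Tg46 than in Lgals7-/-. Of 10 cytochrome c oxidase assembly genes tested of 18, 1 was called higher and 1 lower in Lgals7-/-, 1 higher in Tg46, and 2 higher in Tg46 over Lgals7-/- (medians -0.034, 0.75 and 0.66). Those 2 were Coa6, at 4.35-fold (2.25 to 10), and Cox15, which makes heme A, at 3.21-fold (2 to 5.51). Of 8 complement genes tested of 12, 1 was called higher in Lgals7-/-, and 1 higher and 1 lower in Tg46 (medians -0.054 and 0.49). C2, a complement protease precursor, held 1, 19 and 16 counts, and Serping1 was 3.43-fold lower (1.21 to 11.7) in Tg46. Of 7 transaminase genes tested of 16, 3 were called higher and 1 lower in Lgals7-/-, and 1 higher and 2 lower in Tg46 (medians -0.063 and 0.84). Abat, the GABA transaminase, held 1, 29 and 16 counts. Srsf4, Mettl5, Coa6, Cox15 and C2 themselves have exons across another gene, and with strand use unknown their ratios are uncertain.

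Profiles over the 3 libraries were compared as centred log2 CPM, by Euclidean distance, among the 1180 other genes with at least 100 counts in all. With only 3 libraries such likeness is a coarse measure. Cep68, at a distance of 0.0035 (115, 173 and 357 counts), and 2610020C07Rik, at 0.017, were nearest to Hnrnpu. Ankzf1 (0.0060) and Vps26b (0.013) were nearest to Cox20, Jam2 (0.014) and Dst (0.020) to Masp2, and 4930506A18Rik (0.025) and Apex1 (0.036) to Mettl23. Cacna1d (0.029) and Gm12992 (0.031) were nearest to Hnrnpab, and BC024978 and 4931403G20Rik (both 0.029) to Phykpl. Between the members, Mettl23 and Hnrnpu, on different chromosomes, were closest at 0.070, followed by Hnrnpab and Phykpl, which share a locus, at 0.13. The distances within the other pairs were 0.51 for Hnrnpu and Cox20, 0.66 for Srsf2 and Mettl23 and 0.72 for Tardbp and Masp2.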

How the data were processed

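RNA of 3 pooled papillomas per genotype was purified with TRIzol and silica columns and made into libraries with an Illumina kit, per the labels' protocols. The table deposited by the authors lists unnormalised counts by Entrez identifier. The build was mm10, per the submitters' processing notes, and neither aligner, counter, annotation nor strand setting was given in the sources used here. RefSeq symbols matched 23968 of the 24028 identifiers, and GENCODE M21 (GRCm38) had models for 23697, from which exon unions, overlaps and strands were taken.

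Library sizes were adjusted by TMM (edgeR 4.0.16, R 4.3.3), whose factors were 1.00 for wild-type, 1.05 for Lgals7-/- and 0.945 for Tg46. A gene entered the comparisons if any library held 10 or more counts of it. Ratios had 0.5 counts added to each side, with 95% intervals from the exact Clopper-Pearson limits. Single libraries leave no residual degrees of freedom for a quasi-likelihood test, so p-values are left out, and a call is about libraries rather than genotypes. Intervals cover counting error only and treat reads as independent. Reads that carry no molecular identifiers need not be independent molecules, so the intervals may be too narrow. Shares have Clopper-Pearson intervals, levels Poisson intervals and odds ratios exact conditional intervals. The intervals of ratios, shares and odds ratios were tested on data simulated from the Poisson and binomial models that they assume. Such data cannot show how the intervals hold under variation beyond counting. Scaling by total counts, by upper quartiles and by DESeq2 1.42.0 was tried too, as were 5 added counts, other filters and call rules, and shares per exon length.

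The members, lists, comparisons and the naming rule were chosen with earlier results of these data known. Named genes were drawn from all members, the up to 4 called genes of each list and comparison with the largest change, the 2 nearest profiles of members with 100 counts, and list genes in opposite-strand pairs with 100 counts. Python 3.11.15 and scipy 1.17.1 were used.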

Additional observations from a re-analysis of the deposited data

How the results depend on the processing

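No paired analysis was possible because the libraries are single. Among the settings tried, fold alone and intervals wholly beyond 2-fold kept the ratios and changed only the call rule. They could change no sign, and the second could only remove calls. Of the 144 outcomes for the 8 genes, counted per ratio and setting, 138 stayed on their side of the threshold. Among the others, 4 of Hnrnpu were no longer called and 2 of Cox20 newly were. The sign of the log2 ratio changed in 3, none of them called: Tardbp in Lgals7-/- over wild-type went from 0.038 to -0.18 with 5 added counts, and in Tg46 over Lgals7-/- Srsf2 went from 0.049 to -0.11 with total counts and Masp2 from -0.010 to 0.016 with upper-quartile factors. Of the sums, 1 changed sign, that of Srsf2 and Mettl23 in Lgals7-/- over wild-type, from -0.21 to 0.0041 with upper-quartile factors. Members called higher in Tg46 over wild-type numbered 1 with DESeq2 or upper-quartile factors. In Tg46 over Lgals7-/- 0 were called higher with DESeq2 factors, total counts, 5 added counts or intervals wholly beyond 2-fold. With upper-quartile factors the sum of Hnrnpu and Cox20 passed the threshold in Tg46 over wild-type (log2 ratio 1.07). The cause of these changes was not tested. Per exon length, the shares in wild-type, Lgals7-/- and Tg46 were 6.34%, 3.95% and 5.28% at Hnrnpu, 17.8%, 19.8% and 18.2% at Hnrnpab and 3.74%, 3.28% and 1.95% at Tardbp, since the scale divides by unequal lengths.

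Over all genes, with the comparisons in the order used above, fold alone gave 3269, 3307 and 1808 higher and, in the last, 1653 lower. Intervals wholly beyond 2-fold gave 235, 266 and 147 higher and 449, 449 and 86 lower. Requiring 100 counts, and so testing fewer genes, gave 31, 108 and 104 higher and 20, 6 and 4 lower. With 5 added counts 584 and 658 were higher than wild-type. At these depths Tardbp, Srsf2 and Hnrnpab allow a change of 2-fold or more in at least 1 direction in most comparisons.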
